A study of Mus musculus with 12 samples.

Results

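Immunoglobulin heavy chain variable (Ighv) gene usage was described in RNAseq of B cells sorted from the peritoneal cavity (PerC) of control and KI mice. All table entries named Ighv plus a family number were taken, and those with 10 or more counts summed over the 12 libraries were kept, which left 95 of 165 entries in a table of 56941 genes. The entries nearest the limit were Ighv5.1 with 11 counts inside it and Ighv1.13 with 8.31 counts outside it, and 59 of the 70 entries left out had 0 counts in all libraries. There were 4 groups of 3 libraries, B2 and MemB of each genotype. B2 were sorted as IgD+IgM+ and MemB as IgD-IgM-, from adult littermates. KI mice carried Cd21-Cre and a Cre-dependent Rosa26 allele that encodes a truncated, gain-of-function GPR34 and GFP, which Cd21-Cre turns on in mature B cells but not in earlier stages. The labels do not say whether the controls carried Cre.

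Each B cell assembles 1 heavy chain from a V, a D and a J segment, and the V segment supplies most of the antigen-binding surface. A naive B2 population uses the V genes broadly, whereas clonal expansion after antigen contact raises the V genes of the expanded clones. In the PerC, B-1 cells that bind phosphatidylcholine are known for the V genes of the VH11 and VH12 families, joined to particular κ light chains, and are largely self-renewing. Here usage is the share, in percent, that a gene took of all Ighv counts in a library. It is a share of transcripts, so more cells that use a gene and more RNA per cell cannot be told apart, and the values carry no information on clones or on the D and J segments.

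Gpr34, which checks the genotype labels, had 4.46, 3.42 and 6.86 TMM-normalized CPM, counts scaled to a common library size, in control B2 and 101.8, 112.5 and 100.2 in KI B2. In MemB it had 18.7, 19.4 and 30.8 CPM in control and 132.3, 168.2 and 154.8 in KI libraries, so every KI library was above every control library of its cell type. Library totals lay between 29895068 and 39732124 counts, of which 12S, 16S and 18S ribosomal RNA took 29.3% to 38.3%. The library numbered 3 in each group had 2568.6 to 3415.0 CPM of Xist, the RNA of the inactive X chromosome in females, and the other 8 had 29.3 to 67.5, so each group held both sexes in the same proportion. Depth was even enough that the 95% Wilson interval of any usage value was at most 0.794 percentage points to either side, which covers counting error only. For the leading genes of MemB this was far below the spread between replicates, but not for every member: Ighv1.64 had an SD of 0.300 percentage points in control B2, where its interval in replicate 1 ran from 5.24% to 5.90%.

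The last 300 bases of the V exons of 5 members are shown because they led the MemB libraries: Ighv11.2 and Ighv12.3 in control MemB, and Ighv1.72, Ighv2.9.1 and Ighv14.1 in KI MemB. All lie on the minus strand of chromosome 12 in GRCm39, at chr12:114011861-114012160, chr12:114330141-114330440, chr12:115721604-115721903, chr12:113733470-113733769 and chr12:113895573-113895872, in the order printed with Ighv11.2 first. Sequences run 5′ to 3′. Capitals mark the stretch from the conserved cysteine codon, which precedes the third hypervariable loop (CDR3), to the end of the exon.
Ighv11.2: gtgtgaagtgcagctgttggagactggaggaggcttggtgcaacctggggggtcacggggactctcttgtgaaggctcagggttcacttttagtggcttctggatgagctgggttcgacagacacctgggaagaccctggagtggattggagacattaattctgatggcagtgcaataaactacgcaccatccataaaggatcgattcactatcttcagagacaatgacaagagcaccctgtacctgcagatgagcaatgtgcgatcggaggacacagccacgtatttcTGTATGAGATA
Ighv12.3: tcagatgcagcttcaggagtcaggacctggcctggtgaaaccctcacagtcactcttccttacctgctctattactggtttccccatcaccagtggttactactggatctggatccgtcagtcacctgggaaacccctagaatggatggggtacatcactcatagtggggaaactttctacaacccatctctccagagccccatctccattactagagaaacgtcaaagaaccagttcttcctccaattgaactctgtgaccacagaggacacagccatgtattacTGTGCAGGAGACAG
Ighv1.72: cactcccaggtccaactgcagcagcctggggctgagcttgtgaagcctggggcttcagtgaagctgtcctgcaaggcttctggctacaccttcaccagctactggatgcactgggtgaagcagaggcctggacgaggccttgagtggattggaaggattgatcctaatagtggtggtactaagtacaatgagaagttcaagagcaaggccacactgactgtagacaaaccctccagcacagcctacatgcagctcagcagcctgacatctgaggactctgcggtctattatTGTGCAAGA
Ighv2.9.1: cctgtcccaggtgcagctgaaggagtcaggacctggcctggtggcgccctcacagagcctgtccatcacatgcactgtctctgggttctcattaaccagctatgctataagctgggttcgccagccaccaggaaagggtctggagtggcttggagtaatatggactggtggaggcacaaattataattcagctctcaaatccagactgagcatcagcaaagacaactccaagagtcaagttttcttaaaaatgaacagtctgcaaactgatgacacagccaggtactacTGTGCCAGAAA
Ighv14.1: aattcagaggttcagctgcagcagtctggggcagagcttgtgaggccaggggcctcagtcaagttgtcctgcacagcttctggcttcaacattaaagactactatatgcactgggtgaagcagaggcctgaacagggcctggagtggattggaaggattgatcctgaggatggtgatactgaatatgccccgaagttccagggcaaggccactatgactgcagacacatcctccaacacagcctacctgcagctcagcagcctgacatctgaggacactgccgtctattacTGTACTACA

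Ighv11.2 and Ighv12.3 shared 59.9% of aligned V exon bases, so the pair that led control MemB was no more alike than Ighv11.2 and Ighv1.72, at 61.0%. The closest of these 5 were Ighv1.72 and Ighv14.1, at 81.0%. Near copies matter more for the counts. Of the 95 members, 49 had another annotated Ighv gene with a V exon at least 95% identical, and RSEM divides reads between such copies. Ighv12.3 stood alone, with its nearest gene at 79.4% and every one of its 50-base windows absent from every other annotated Ighv transcript. Ighv11.2 was 98.7% identical to Ighv11.1, yet 61.4% of its windows were its own, and Ighv11.1 summed to only 39.5 counts over all libraries. Ighv1.72 is the least certain of the 5, since only 7.49% of its windows were unique and Ighv1.62.3 matched it at 99.0%.

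The 95 members spanned 2.43 Mb, from 113536547 to 115964081, and belonged to 14 families. The annotation lists 82 of them as functional V genes and 13 as pseudogenes, which held 1.22% of all Ighv counts. Ighv counts were a small part of each library. They made up 0.0589%, 0.0661% and 0.0616% of all counts in control B2 and 0.0432%, 0.0444% and 0.0510% in KI B2. In MemB they made up 0.0450%, 0.0433% and 0.0381% in control and 0.0366%, 0.0259% and 0.0360% in KI. Control B2 was thus highest and KI MemB lowest, and within each cell type no KI library reached the lowest control library. With ribosomal RNA left out of the total, the MemB groups overlapped, with 0.0559% in KI replicate 1 and 0.0544% in control replicate 3. Set against the heavy chain constant genes, the order was similar: B2 had 9.85 to 11.99 Ighv counts per 100 constant region counts in control and 9.14 to 9.87 in KI mice, while MemB had 6.88 to 9.50 and 5.40 to 5.90.

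Both B2 groups used the V genes broadly. The Shannon entropy of usage, which rises as more genes are used more evenly, was 5.42, 5.37 and 5.38 bits in control B2 and 5.42, 5.42 and 5.53 bits in KI B2. MemB was narrower in both genotypes, with 4.58, 4.36 and 5.13 bits in control and 4.53, 4.86 and 4.63 bits in KI, so that all 6 MemB libraries lay below all 6 B2 libraries. Expressed as the number of equally used genes that would give the same entropy, B2 had 43.0 ± 1.73 (SD, n = 6) and MemB 26.1 ± 5.2 (SD, n = 6). It took 12 or 13 genes to reach 50% of the Ighv counts of a B2 library, and 5 to 9 in MemB. The narrowing was one of evenness and not of the number of genes seen: thinned to 8339 Ighv counts, a library still showed 79.3 ± 3.01 members in B2 and 77.8 ± 3.25 in MemB (SD, n = 6 each). When genes were pooled into families before the entropy was taken, the mean difference of MemB from B2 was 0.04 bits in place of -0.74. That value is a mean over both genotypes, which were not alike. By family, KI minus control was -0.59 bits in MemB and 0.16 bits in B2. The value near 0.04 therefore does not show equal family entropy of MemB and B2 within each genotype.

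**Figure D1:**
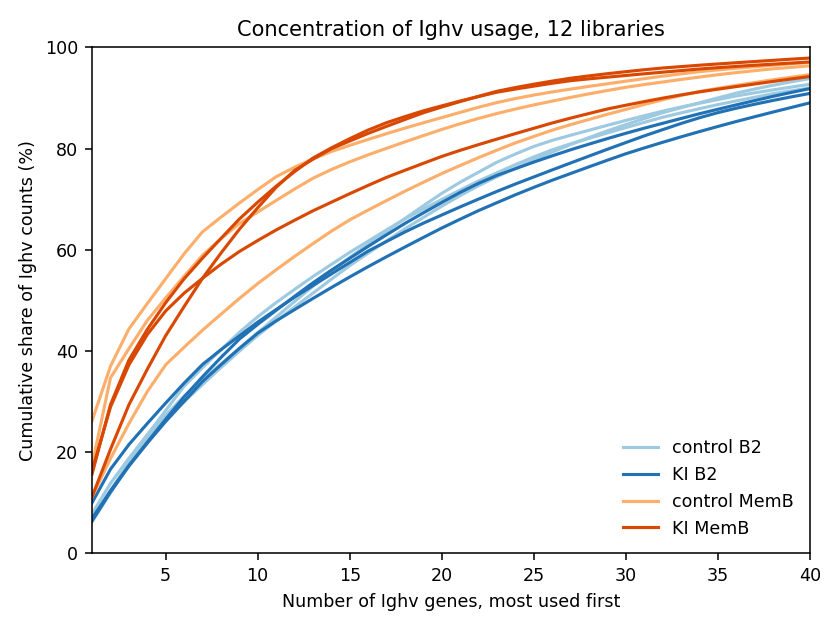
Cumulative share of Ighv counts (percent, y axis) against the number of genes taken, most used first (x axis, first 40 genes), 1 line per library, coloured by group. The first 10 genes held 43.1% to 46.8% of the counts in the 6 B2 libraries and 53.3% to 71.9% in the 6 MemB libraries, and control MemB replicate 3 lies closest to B2.

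Control and KI MemB had similar entropy over single genes, but different genes led them. The mean entropy differed by -0.02 bits between KI and control MemB, against a replicate SD of 0.397 in control and 0.167 in KI. With genes pooled into families this difference was -0.59 bits. The pair Ighv11.2 and Ighv12.3 held a mean of 29.9% of the counts of control MemB and 2.92% of those of KI MemB. Leaving this pair out therefore raises entropy in control MemB by construction, and no matching set of KI MemB genes was left out, so the values that follow describe the remaining genes and are no evidence of a difference in diversity. Without the pair, control MemB had 5.06, 4.906 and 5.22 bits, KI MemB 4.497, 4.79 and 4.56 bits, and KI B2 5.36, 5.36 and 5.48 bits. Every control MemB library then lay above every KI MemB library and below every B2 library, the lowest of which had 5.30 bits. Entropy is a score over all members, so no test was made of it.

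**Figure D2:**
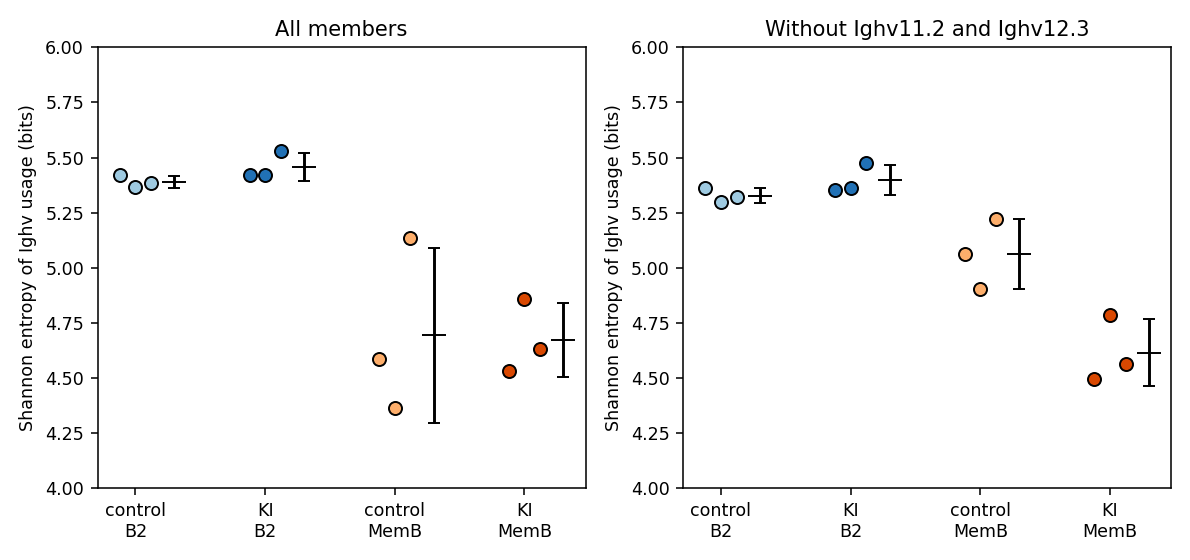
Shannon entropy of Ighv usage (bits, y axis, which starts at 4) in the 4 groups, for all members on the left and without Ighv11.2 and Ighv12.3 on the right. Points are libraries, and the bar beside them is the mean ± SD of 3; on the right, control MemB (4.906 to 5.22) does not overlap KI MemB (4.497 to 4.79), a gap that the choice of genes left out favours.

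Ighv11.2, the VH11 gene of phosphatidylcholine-binding B-1 cells, had the smallest p of all members between KI and control MemB. It took 17.5%, 10.8% and 6.89% of Ighv counts in control MemB but 0.336%, 0.444% and 0.209% in KI MemB. In B2 it took 3.53%, 1.99% and 1.602% in control and 2.76%, 2.29% and 3.93% in KI. Control MemB was above every other library and KI MemB below every other library, B2 included. Ighv1.5, Ighv1.80, Ighv2.6 and Ighv5.17 were likewise lower in each KI MemB library than in any other library, and Ighv1.11, Ighv5.16 and Ighv12.3 higher in each control MemB library than in any other, but no other member did both. In counts, control MemB libraries held 2953, 1710 and 836 and KI MemB libraries 38, 37 and 23.6.

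Ighv11.2 was the only member called between KI and control MemB, among 77 members that passed the filter on low counts. Its TMM-normalized level was 53.0 ± 29.5 CPM in control and 1.07 ± 0.26 CPM in KI MemB (SD, n = 3 each). In the quasi-likelihood test of edgeR this was -5.63 on the log2 scale with a standard error of 0.81, and the p adjusted over 15148 genes by Benjamini-Hochberg was 0.000222. Over all genes tested 0.284% were called in this comparison, 0.205% lower and 0.0792% higher. In B2 the log2 fold change of Ighv11.2 was -0.14 (standard error 0.66, adjusted p = 1.00 in the same test). The interaction contrast of edgeR, which sets the KI effect in MemB against that in B2, gave -5.48 (standard error 1.00, adjusted p = 0.0151), and Ighv11.2 was again the only member called, where 0.066% of all genes were (0.0528% lower, 0.0132% higher). At an unadjusted p below 0.05 it picked 10 of the 77 members, beside 8.49% of all genes. That call was lost on leaving out control B2 replicate 2 or 3, KI B2 replicate 3 or control MemB replicate 1, with adjusted p of 0.0513 to 0.106, and on leaving out all 4 libraries numbered 3 (adjusted p = 0.141). The call within MemB held in every setting run, with adjusted p from 8.62e-19 to 0.00862.

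Ighv12.3, the VH12 gene of the same B-1 specificity, was high in control MemB and more variable in KI MemB. It took 17.2%, 26.2% and 11.15% in control MemB and 0.318%, 2.76% and 4.71% in KI MemB, so these groups did not overlap. In B2 it took 1.03%, 2.57% and 1.16% in control and 2.09%, 0.788% and 2.22% in KI, and KI MemB was above this range in 2 libraries and below it in the other. Its level was 81.7 ± 40.7 CPM in control and 8.52 ± 8.14 CPM in KI MemB (SD, n = 3 each). The log2 fold change, -3.26 with a standard error of 0.76, missed the threshold at an adjusted p of 0.0513 in edgeR's test. Settings changed this call: 7 of 12 fits that left out 1 library called it and 5 did not, with log2 fold changes from -4.30 without KI MemB replicate 3 to -2.74 without KI MemB replicate 1. Over all settings, DESeq2 included, the adjusted p ran from 0.000779 to 0.288. Per transcript length, Ighv12.3 exceeded Ighv11.2 in control MemB, with mean shares of 19.4% and 9.59%.

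Together Ighv11.2 and Ighv12.3 took 34.7%, 37.0% and 18.04% of Ighv counts in control MemB and 0.654%, 3.20% and 4.92% in KI MemB. The difference of the means was -27.0 percentage points. In control B2 the sum was 4.57%, 4.56% and 2.76%, and in KI B2 4.85%, 3.08% and 6.16%, so KI MemB overlapped B2 while control MemB was above all other libraries.

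**Figure D3:**
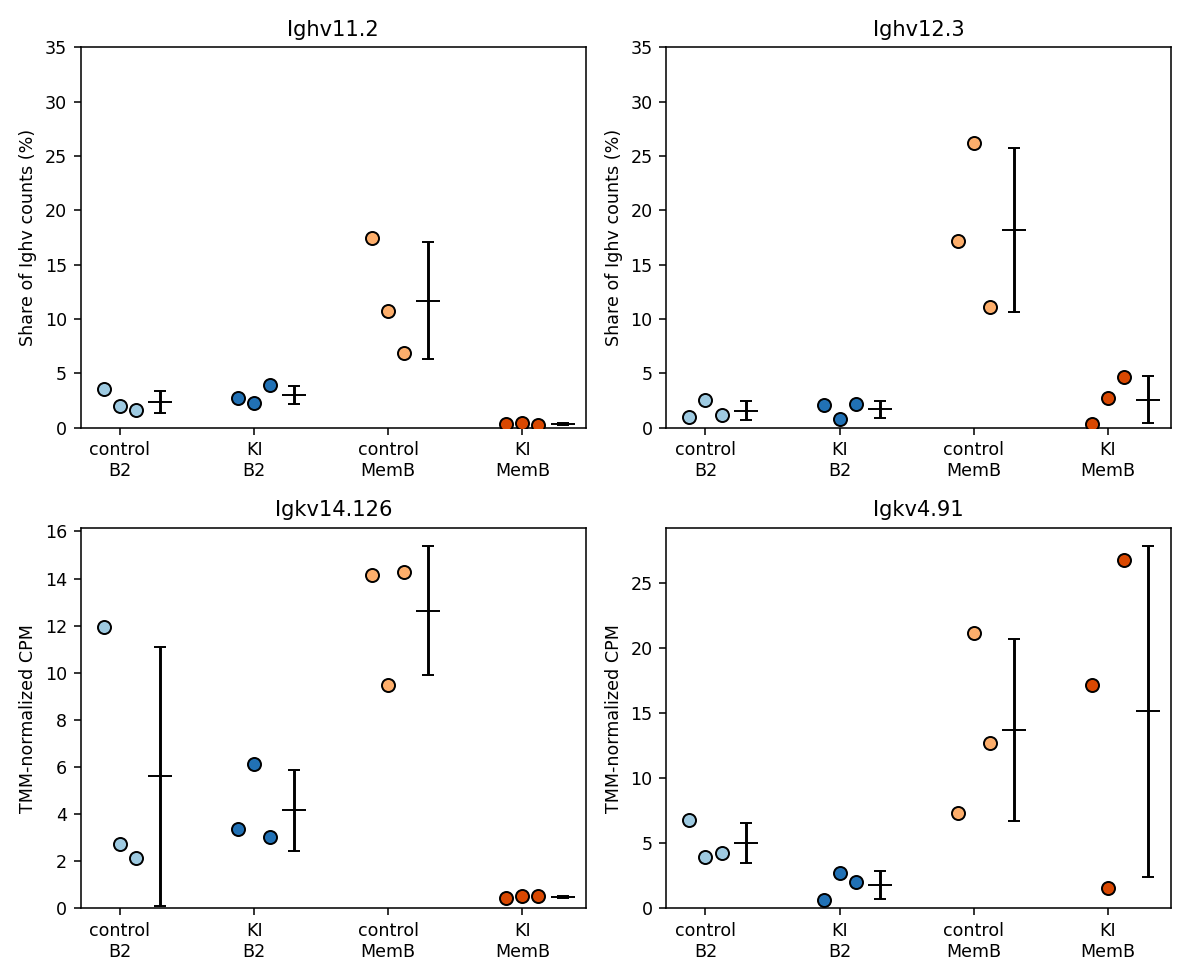
Upper panels give usage of Ighv11.2 and Ighv12.3 (percent of Ighv counts), lower panels the levels of the light chain genes Igkv14.126 and Igkv4.91 (TMM-normalized CPM), with libraries as points and mean ± SD of 3 as the bar beside them. Igkv14.126 is between 0.44 and 0.52 in KI MemB and 9.46 or more in control MemB, whereas for Igkv4.91 the 2 MemB groups overlap.

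The κ light chain genes that usually accompany these heavy chains gave unlike patterns. Igkv14.126, the partner of VH11, had 14.2, 9.46 and 14.3 CPM in control MemB and 0.44, 0.52 and 0.52 CPM in KI MemB, with no overlap. Its log2 fold change was -4.66 (standard error 1.34), which edgeR's test did not call at an adjusted p of 0.196. Across the 12 libraries, log2 levels of Ighv11.2 and Igkv14.126 had a Pearson r of 0.905 and a Spearman rho of 0.881, a description only, since libraries of a group share cell type and genotype. Igkv4.91, the partner of VH12, had 7.29, 21.2 and 12.7 CPM in control MemB and 17.1, 1.56 and 26.8 CPM in KI MemB, which overlap. With Ighv12.3 it had an r of 0.333 and a rho of 0.308 over the same libraries.

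Markers of other cells moved along with this pair in part. Of 6 genes listed for B-1 cells, edgeR called 0 between KI and control MemB, though 2 of them (Cd5 and Cd9) had an unadjusted p below 0.05. Cd9 had 22.5, 15.5 and 19.6 CPM in control MemB against 0.61, 0.49 and 1.59 in KI MemB, and Cd5 had 8.71 or more against 0.17, 1.96 and 0.13. The other 4 moved less and not in 1 direction, with log2 fold changes of -0.45 for Spn, -0.41 for Bhlhe41, 0.04 for Zbtb32 and 0.57 for Itgam. The summed level of the list was 577 to 801 in control MemB and 482 to 616 in KI MemB, in CPM without TMM, and thus overlapped. Bhlhe41 was the largest part of that sum. The list of 5 genes shared by all B cells overlapped too, at 2644 to 3161 and 2524 to 3067. Of the lists, 3 did separate the genotypes on the same scale. The 4 genes of naive follicular B cells summed to 659 to 781 in control and 299 to 554 in KI MemB, and 6 genes of germinal centre and activated B cells to 160 to 309 and 364 to 515. Ighm, the μ constant region that B-1 cells mostly express, made up 53.1%, 52.2% and 38.0% of heavy chain constant counts in control MemB, a population sorted as IgM-, and 4.44%, 10.8% and 8.31% in KI MemB. Igha, the α constant region, made up 6.95%, 12.6% and 20.4% in control MemB and 64.1%, 54.3% and 69.5% in KI MemB. The list of 4 T and NK cell genes, the third without overlap, summed to 44.7 to 89.4 CPM in control and at most 14.15 CPM in KI MemB, and the list of 8 plasma cell genes to 382 to 605 and 453 to 575, of which Jchain alone was called (log2 fold change 3.8, adjusted p = 0.00495 by edgeR). Sdc1, which encodes the plasma cell antigen CD138, was at 0.09 CPM or less in all MemB libraries but KI MemB replicate 1, at 14.3. The part of other cells in the fall of Ighv11.2 was not tested.

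KI MemB libraries were each led by a different member. In KI MemB replicate 1 the leading gene was Ighv2.9.1 of the Q52 family with 15.7%, followed by Ighv14.2 of the SM7 family with 13.7%. In replicate 2 it was Ighv14.1, also of SM7, with 16.4%, followed by Ighv3.1 with 12.5%. In replicate 3 it was Ighv1.72 with 11.18%, followed by Ighv1.53 with 9.39%. These shares were not shared within the group: Ighv2.9.1 took 1.21% and 0.997% in the other KI MemB libraries, and Ighv14.1 took 2.00% and 1.39%. Outside KI MemB, Ighv2.9.1 was highest in control MemB replicate 3, at 6.34%, and Ighv14.1 in control B2 replicate 3, at 2.25%. Neither passed edgeR's test, with log2 fold changes against control MemB of 1.28 (standard error 0.97, adjusted p = 0.681) and 2.13 (standard error 1.17, adjusted p = 0.517). Control MemB differed in that 1 pair of genes recurred: Ighv11.2 led replicate 1 and Ighv12.3 led replicates 2 and 3.

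Taking any library of a group, members with more than 5% of the counts numbered 9 for control and 6 for KI B2, and 8 for control and 14 for KI MemB. Those above 5% in all 3 libraries were none in either B2 group, Ighv11.2 and Ighv12.3 in control MemB, and Ighv1.72 in KI MemB. The overlap of usage between libraries was measured by the Morisita-Horn index, which is 0 for no shared usage and 1 for identical usage. Replicates had 0.768, 0.769 and 0.680 in control B2 and 0.745, 0.717 and 0.771 in KI B2. In control MemB they had 0.849, 0.684 and 0.664, but in KI MemB only 0.347, 0.421 and 0.380. Between control and KI the median was 0.765 in B2, as high as among replicates, and 0.291 in MemB. Control MemB replicate 3, the MemB library with the highest entropy, had 0.548 to 0.635 with the B2 libraries.

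**Figure D4:**
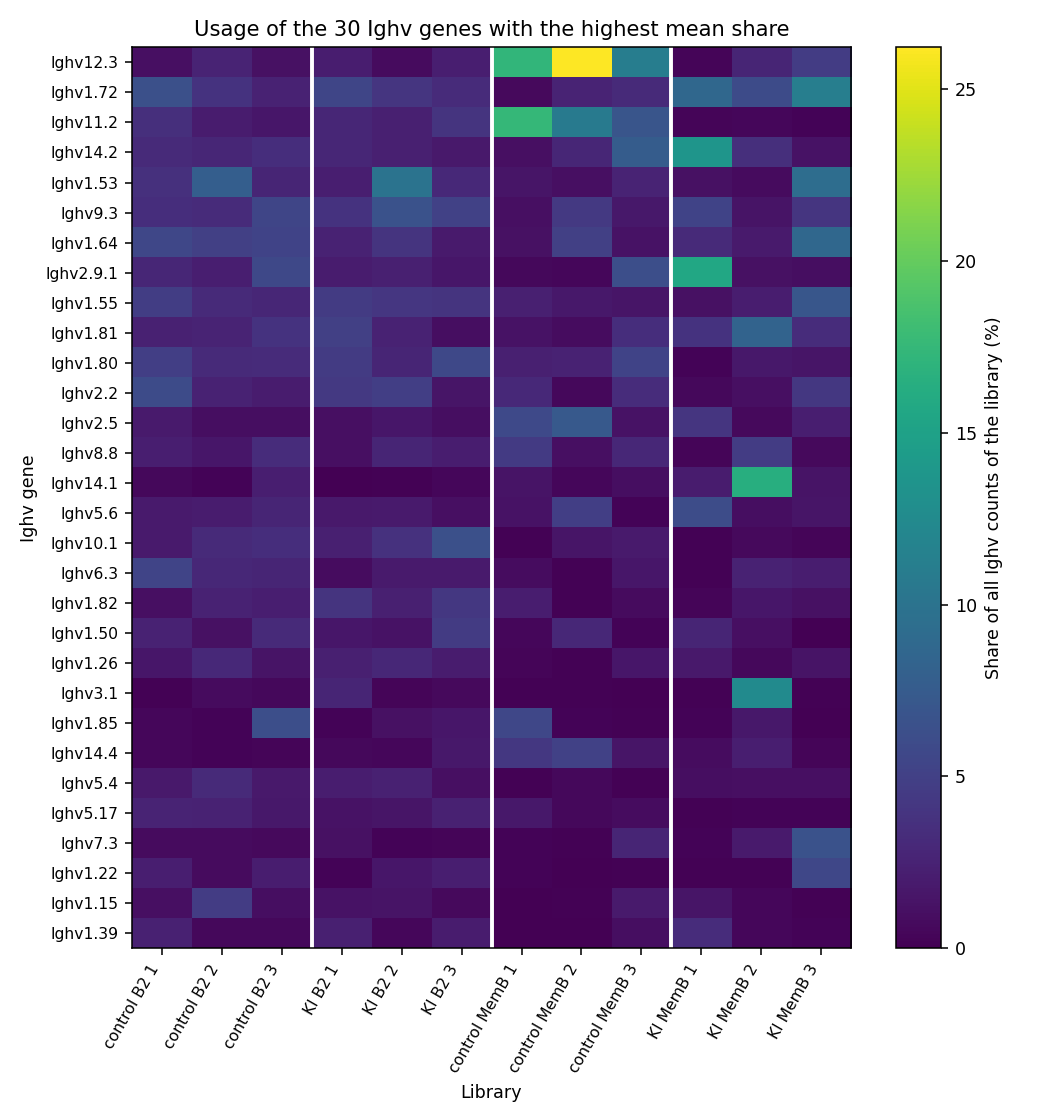
Share of Ighv counts (percent, colour) of the 30 members with the highest mean share (rows) in the 12 libraries (columns, with white lines between groups). Ighv12.3 and Ighv11.2 are bright in all 3 control MemB libraries, up to 26.2%, while in KI MemB the bright cells of Ighv2.9.1 (15.7%) and Ighv14.1 (16.4%) are each in 1 library.

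Ighv1.72 was the member shared by KI MemB libraries. It is the V186.2 gene, known from the antibody response of C57BL/6 mice to the hapten NP. It took 8.79%, 6.00% and 11.18% in KI MemB and 0.633%, 2.66% and 3.12% in control MemB, without overlap, and 6.43%, 3.83% and 2.48% in control B2 and 5.45%, 4.05% and 3.22% in KI B2. KI MemB thus overlapped the upper end of B2. The log2 fold change against control MemB was 1.75 (standard error 0.69), with an unadjusted p of 0.0168 and an adjusted p of 0.360 in edgeR's test. Its near copy Ighv1.62.3 limits this reading, since reads could be divided between them. Ighv7.1, the V gene of the T15 antibodies against phosphorylcholine, took 3.25% in control MemB replicate 1 and at most 0.266% in any other library.

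Across all members, 17 of the 77 tested had an unadjusted p below 0.05 between KI and control MemB, 5 higher and 12 lower, which is 22.1% against 11.1% of all genes. On the CPM scale 4 were higher in every KI MemB library than in every control MemB library and 12 were lower in every one, beside 6.01% and 6.08% of all genes tested. As shares of Ighv counts, 7 of the 95 members were higher and 13 lower without overlap. Other genes have no value on this scale, so no share over all genes can be set beside such counts, here or below. Shares in a library have a fixed sum, so the lower shares of Ighv11.2 and Ighv12.3 in KI MemB raise those of other members. The median log2 fold change of the tested members was -0.43, against -0.03 over all genes. The lower sum of Ighv counts in KI MemB enters this median, and with Ighv genes scaled to that sum it was 0.07. Under this scaling Ighv11.2 kept a log2 fold change of -5.15 (adjusted p = 0.000628, edgeR).

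Between KI and control B2 no member was found to differ. None was called by edgeR (0 of 77, as against 0.0066% of all genes), and 2 had an unadjusted p below 0.05, beside 5.75% of all genes. DESeq2 also called 0, beside 0.277% of all genes. On the CPM scale 1 member was higher in every KI B2 library and 7 lower in every one, beside 5.22% and 4.99% of all genes. As shares of Ighv counts, which take out the lower Ighv sum of KI B2, 2 of the 95 members were higher without overlap (Ighv14.4 and Ighv1.84) and 3 lower (Ighv6.3, Ighv1.64 and Ighv5.6). The members with an unadjusted p below 0.05 were Ighv9.2 of the Vgam3.8 family and Ighv14.1. Ighv9.2 took 1.599%, 0.0169% and 0.0178% in control B2 and 0.0086%, 0% and 0.0229% in KI B2, so 1 library carried its level. Ighv14.1 took 0.591%, 0.271% and 2.25% in control B2 and 0.0807%, 0.201% and 0.410% in KI B2, which overlap. The most used members of B2 were Ighv1.64, Ighv1.53, Ighv1.72, Ighv9.3 and Ighv1.80 in control, with mean shares of 3.71% to 5.26%, and Ighv9.3, Ighv1.53, Ighv1.80, Ighv1.55 and Ighv1.72 in KI, with 4.24% to 5.18%. Per transcript length the shares of these genes ranged from 3.93% to 5.00% and from 3.801% to 5.48%, so no B2 gene stood far above the next.

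B2 libraries had leading genes of their own, at lower shares than in MemB. In control B2 these were Ighv1.72 with 6.43%, Ighv1.53 with 7.84% and Ighv1.85 with 6.27%, and in KI B2 Ighv4.1 with 6.91%, Ighv1.53 with 10.02% and Ighv10.1 with 6.40%. Ighv1.85, the member farthest from the D segments, took 0.496% and 0.238% in the other control B2 libraries but 5.57% in control MemB replicate 1, and Ighv4.1 took 1.55% and 0.126% in the other KI B2 libraries. Ighv1.53 was above 2% in all 6 B2 libraries, from 2.24% to 10.02%. The leading gene was the same per transcript length in 10 of the 12 libraries, and the exceptions were control B2 replicate 1 (Ighv2.2) and control MemB replicate 1 (Ighv12.3).

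Between MemB and B2 over both genotypes, most members were lower in MemB, and 1 was called. Ighv10.1, of the small VH10 family, had 11.3, 20.7 and 19.8 CPM in B2 of control mice and 9.48, 15.9 and 30.6 in B2 of KI mice. In MemB it had 0.91, 6.74 and 7.04 CPM in control and 0.48, 1.81 and 1.43 in KI mice. All MemB libraries were below all B2 libraries on this scale, and edgeR's test gave -2.87 on the log2 scale (standard error 0.71, adjusted p = 0.0301). Over all genes 1.01% were called, 0.37% lower and 0.64% higher. As a share of Ighv counts Ighv10.1 overlapped, with 1.85% to 6.40% in B2 and 0.119% to 1.93% in MemB. The call was lost in 7 of 12 fits that left out 1 library, with an adjusted p of up to 0.132 without KI B2 replicate 3, and when Ighv genes were scaled to their sum (-2.29, adjusted p = 0.111). Of the tested members 60 had a log2 fold change below 0 and 17 above, and 22 had an unadjusted p below 0.05 (20 lower, 2 higher), which is 28.6% beside 12.9% of all genes. On the CPM scale 5 members were lower in every MemB library than in every B2 library and 0 higher, beside 0.462% and 0.799% of all genes. As shares of Ighv counts, 2 of the 95 members were lower without overlap (Ighv1.61 and Ighv5.4) and 0 higher. Their median was -1.06, and -0.65 with Ighv genes scaled to their sum. Ighv12.3 went the other way, with 1.602 (standard error 0.51, adjusted p = 0.126), and was called at 2.07 (adjusted p = 0.0285) in the scaled fit.

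**Figure D5:**
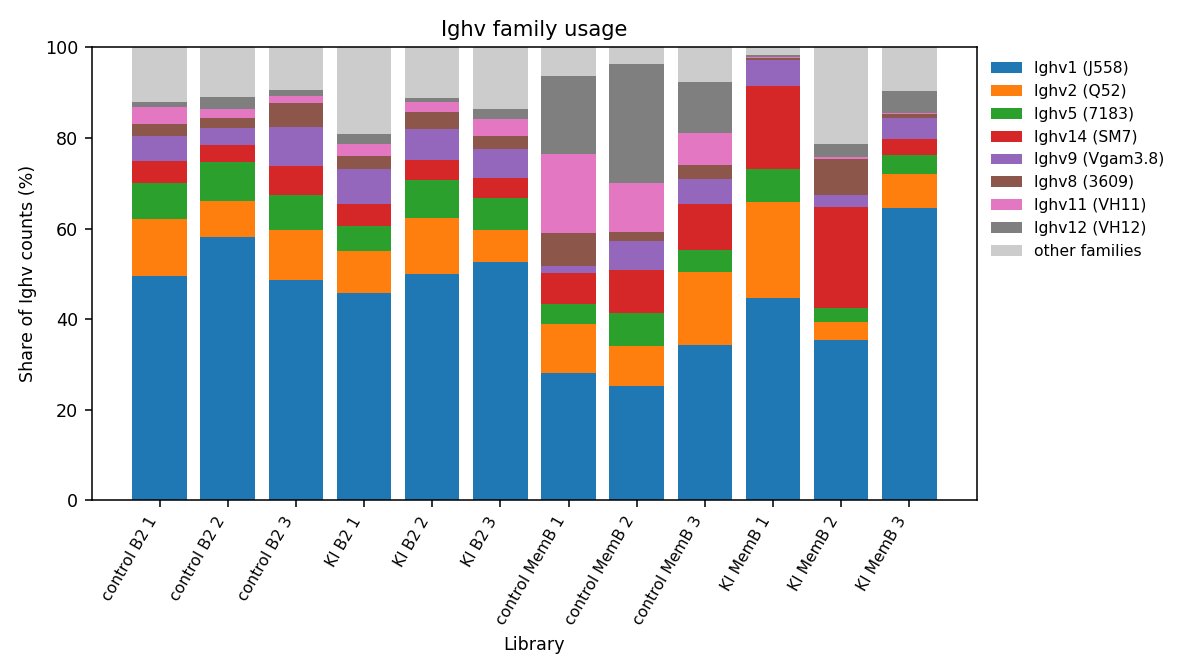
Share of Ighv counts (percent, stacked bars) by V gene family in each of the 12 libraries. The Ighv1 (J558) share is 25.2% to 34.4% in control MemB and 45.7% to 58.1% in B2, and the VH12 band takes 11.15% or more in control MemB and 4.71% or less elsewhere.

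The families followed the leading genes. The J558 family, the largest with 45 members, took 52.1% ± 5.21 of control B2 counts and 49.4% ± 3.43 of KI B2 counts, against 29.2% ± 4.68 for control MemB and 48.2% ± 14.8 for KI MemB (SD, n = 3 each). Control MemB had the lowest 3 values of all libraries, and KI MemB spread widely, from 35.5% to 64.5%. The SM7 family took 4.97% ± 1.37 and 4.51% ± 0.195 in control and KI B2. For MemB the values were 8.96% ± 1.74 in control and 14.6% ± 9.97 in KI mice, where single libraries had 3.36%, 18.3% and 22.3%. By position, the families far from the D segments (J558 and Ighv8) took 27.3% to 37.5% in control MemB and 43.3% to 65.3% in KI MemB, against 48.5% to 60.3% in B2. The families next to the D segments (Q52 and Ighv5) did not separate the groups, with 14.2% to 20.9% in B2, 15.2% to 20.8% in control MemB and 7.05% to 28.5% in KI MemB. Ighv2.5, a D-proximal Q52 gene, and Ighv14.4 of SM7 were the next most used genes of control MemB beside Ighv14.2, with 5.78%, 7.36% and 1.25% for Ighv2.5 and 4.29%, 5.02% and 1.48% for Ighv14.4. Replicate 3 was lowest for both, and its Ighv14.4 share lay above 5 B2 libraries (0.243% to 0.555%) and below KI B2 replicate 3 (1.70%).

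The remaining members named by rank in KI MemB varied from library to library. Ighv1.81 took 3.89%, 8.33% and 3.34% there and 1.29%, 0.921% and 3.47% in control MemB. Ighv14.2 took 13.7%, 3.51% and 1.33%, and 1.07%, 2.78% and 7.59% in control MemB, so that its high library differed in each group. Ighv1.64 took 3.16%, 1.92% and 8.79% in KI MemB, where it was 1.22%, 4.93% and 1.27% in control MemB. Each of these 3 overlapped between the genotypes, with adjusted p of 0.677, 0.883 and 0.864 in edgeR's test. Ighv1.80 was lower in KI MemB without overlap, at 0.215%, 1.69% and 1.53% against 2.25%, 2.55% and 5.29%, and edgeR gave -1.96 on the log2 scale (standard error 0.81, adjusted p = 0.365).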

How the data were processed

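RNAseq of sorted PerC B2 and MemB was analysed. Per the submitters' processing notes and the study's methods, amplified libraries were sequenced as 50-base paired ends, trimmed with cutadapt 4.5, aligned to mm39 with STAR 2.7.11a and quantified with RSEM 1.3.3. The authors deposited expected counts per gene, not normalized, of which 32.2% of non-zero values were not whole, and these were rounded for tests. Symbols carry dots for hyphens. GRCm39 (mm39) and GENCODE M39 gave coordinates, and all 95 members matched. Of 183 annotated Ighv genes, 18 had no entry among the counts and could not be analysed here.

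Usage, entropy (in bits) and similarity were computed in Python 3.11.15. edgeR 4.0.16 (R 4.3.3) fitted all 12 libraries with 4 group means, TMM, filterByExpr at a minimum count of 10 and robust quasi-likelihood; 77 members and 15148 genes passed. A gene was called at an adjusted p below 0.05 where its log2 fold change was also beyond 1 in either direction. The common biological coefficient of variation was 91.4%. On simulated counts for KI against control MemB over 14864 genes, edgeR recovered 47 of 66 changed 16-fold, 22 of 67 changed 4-fold and 0 of 67 changed 2-fold, with 1 false call of 70. DESeq2 1.42.0 was an alternative, as were other normalizations, filters, blocks and member sets, and each library left out. Leaving out all libraries numbered 3, and dividing counts by length, were chosen after seeing the data. Libraries of a group differed by more than sampling noise. The labels call them biological replicates.

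The members, lists and the naming rule were chosen with earlier results of these data known. Named were Ighv11.2 and Ighv12.3, the top 5 by mean usage of each group, the leader of each library, called members (or the smallest p) and members with a known antigen, 19 in all by that rule; others are named from counts or ranks.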

Additional observations from a re-analysis of the deposited data

Results flagged for a closer look

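Ighv11.2 differed between the cell types in its response to the KI genotype. The KI effect in MemB minus the KI effect in B2 was -5.48 on the log2 scale (standard error 1.00, adjusted p = 0.0151, edgeR interaction contrast). In MemB every KI library was below every control library, and in B2 the 2 genotypes overlapped. The call rests on several libraries, as given above, and no explanation was tested.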

How the results depend on the processing

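Between KI and control MemB the number of members called was 1, and it was 2 with no filter on low counts (0.349% of all genes in that fit), 7 by DESeq2 (3.16%), 2 without the 4 libraries numbered 3 (0.155%), and 1 to 2 with single libraries left out (0.0916% to 0.307%). The second gene was Ighv12.3 in the edgeR fits. DESeq2 made 68 false calls of 159 on the simulated counts. For the interaction the count of 1 became 3 by DESeq2 (1.38% of all genes), 0 without the libraries numbered 3 (0.0644%), and 0 to 1 with single libraries left out (0.0306% to 0.0612%). For MemB against B2 it became 2 unfiltered (0.916% of all genes), 12 by DESeq2 (3.85%), 0 without the libraries numbered 3 (0.567%), and 0 to 1 with single libraries left out (0.639% to 0.961%). The gene called there was Ighv12.3 without KI MemB replicate 1, Ighv1.53 without KI MemB replicate 3, and Ighv10.1 in the other fits with a call. In B2 it stayed at 0 throughout, beside 0.0061% to 0.277% of all genes. The causes of these changes were not tested.

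The B2 log2 fold change of Ighv11.2, -0.14, reversed to 0.33 with Ighv genes scaled to their sum, 0.0090 with a replicate block, and ran from -0.47 to 0.27 with single libraries left out (0.27 without control B2 replicate 1, 0.03 without KI B2 replicate 2). That of Ighv12.3, -0.41, reversed to 0.10 with that scaling and ran from -0.74 to 0.20 with single libraries left out (0.20 without control B2 replicate 2). Entropy of KI minus control MemB moved to -0.45 without Ighv11.2 and Ighv12.3 and to -0.59 by family. That of KI minus control B2 moved from 0.07 to 0.16 by family. For MemB minus B2, a mean over both genotypes, it moved from -0.74 to 0.0402 by family. The share of the pair in B2, KI minus control, moved from 0.734 to -0.598 percentage points without the libraries numbered 3. The Ighv share of all counts, MemB minus B2, moved from -0.0167 to -0.0256 percentage points with ribosomal RNA left out of the total. Of 351 settings run over 19 results, 287 kept the result. For the fold change of a gene this meant the same direction and side of the threshold. For a count of members called it meant an equal count, whichever genes were called. For other values it meant staying within the replicate spread.

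Whether B2 and MemB with the same number were sorted from 1 mouse is not stated, and over all genes their deviations from group means correlated at no more than 0.0344, so numbers were not taken as pairs. A replicate block by number gave 1, 0, 1 and 1 calls in the 4 comparisons, as without it, beside 0.244%, 0.0066%, 0.0396% and 0.845% of all genes. A block by number within genotype, run for MemB against B2, gave 1 call, beside 0.825% of all genes. With 3 libraries a group and a wide spread, changes of 4-fold or less were mostly out of reach, and genes with near copies are uncertain.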
